A study of Mus musculus with 6 samples.

Results

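The Hes and Hey genes encode transcriptional repressors of the basic helix-loop-helix class, and the 9 members examined here were Hes1, Hes2, Hes3, Hes5, Hes6, Hes7, Hey1, Hey2 and Heyl, out of 22350 protein-coding genes of the mouse annotation. A member was assigned every RBPJ peak whose center lay inside the gene or within 25 kb of either end. The peaks came from anti-RBPJ ChIP-seq in F9 cells, an established mouse embryonal carcinoma line derived from a testicular teratoma. The cells were either cycling asynchronously, which the labels put at 95% interphase and 5% mitosis, or treated with nocodazole, a microtubule poison that arrests cells in mitosis. The labels name no genetic change in either population, and both were immunoprecipitated with the same custom rabbit polyclonal antibody. Of 6 libraries (4 immunoprecipitates and 2 inputs), only the first immunoprecipitate of each population was represented by a peak list, so there were no replicates and no test of a difference between the populations. The asynchronous cells contained mitotic cells, and the nocodazole-treated cells differed from them in drug exposure as well as in cell cycle phase, which cannot be told apart. Peak positions carry no expression level, so the identity of the cells was not checked against marker genes.

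RBPJ is the DNA-binding protein at the end of the Notch pathway. Without signal it sits with co-repressors, and after a Notch receptor is cleaved the intracellular fragment of the receptor joins RBPJ and recruits co-activators of the Mastermind family. Hes1, Hes5, Hes7, Hey1, Hey2 and Heyl are textbook targets of this switch, and their products bind DNA with Groucho-class or other co-repressors to silence genes such as the proneural factors. Hes3 is best known from neural progenitors, while Hes6 differs from its relatives in opposing Hes1 activity and is not regarded as a typical Notch target.

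RBPJ peaks were found at 6 of the 9 genes in asynchronous cells (Hes1, Hes2, Hes3, Hes5, Hes7 and Hey1) and at 3 in mitotic cells (Hes1, Hes5 and Hes7). All 3 genes with a mitotic peak also had an asynchronous peak, and Hes6, Hey2 and Heyl had neither. The highest asynchronous peaks of the family lay far upstream of Hey1 and Hes5 and at the Hes1 promoter, and each held an RBPJ motif. The mitotic list had no peak at the Hey1 and Hes5 upstream sites and held a peak at the Hes1 promoter. Sequences of the family's peaks are shown first, because the asynchronous and mitotic peaks differed in which of them they covered.

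The RBPJ motif was searched as TTCCCACA or TTCCCACG on both strands, and all sequences are the plus strand of mm9 written 5′ to 3′. Capitals mark the motif, which reads TGTGGGAA where it lies on the minus strand, and in the Hes1 promoter also the partner site of a head-to-head pair (GTGNGAA, a gap of 15 to 17 bases, TTCNCAC), the arrangement known from Notch-responsive promoters. The Hes1 promoter sequence is chr16:30065337-30065425, the part of the asynchronous peak upstream of the start of the coding transcript. The Hes1 downstream peak is chr16:30066387-30066559, the Hes5 upstream peak chr4:154320545-154320717, and the peak past the end of Hes3 chr4:151659705-151659877. These are 4 of the 6 asynchronous peaks that held a motif.
Hes1 promoter: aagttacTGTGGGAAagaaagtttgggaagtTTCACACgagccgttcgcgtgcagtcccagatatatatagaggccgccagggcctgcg
Hes1 downstream: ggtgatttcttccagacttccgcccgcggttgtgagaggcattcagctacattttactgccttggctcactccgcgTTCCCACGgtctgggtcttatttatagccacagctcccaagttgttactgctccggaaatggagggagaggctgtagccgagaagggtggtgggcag
Hes5 upstream: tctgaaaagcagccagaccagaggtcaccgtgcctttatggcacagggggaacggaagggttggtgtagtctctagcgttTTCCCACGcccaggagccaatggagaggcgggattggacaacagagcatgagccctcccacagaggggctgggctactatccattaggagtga
Hes3 gene end: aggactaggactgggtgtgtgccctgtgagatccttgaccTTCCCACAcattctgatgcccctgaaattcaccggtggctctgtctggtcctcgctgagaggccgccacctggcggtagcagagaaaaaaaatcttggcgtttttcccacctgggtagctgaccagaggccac

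A further one, upstream of Hes7, is shown with the mitotic peak that overlapped it, since the motif lay in only one of them. The asynchronous peak is chr11:68932293-68932465 and the mitotic peak chr11:68932231-68932433. Capitals mark the RBPJ motif in the asynchronous peak. In the mitotic peak, which had no RBPJ motif, they mark the letters of the B box (GTTCGA, any base, then TC), the inner promoter element of tRNA genes, on the minus strand. The B box was looked for only after these sequences had been seen.
Hes7 asynchronous: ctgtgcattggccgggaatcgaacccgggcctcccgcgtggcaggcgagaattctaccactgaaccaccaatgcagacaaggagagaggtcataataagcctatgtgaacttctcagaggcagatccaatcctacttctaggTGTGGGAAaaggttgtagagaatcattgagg
Hes7 mitotic: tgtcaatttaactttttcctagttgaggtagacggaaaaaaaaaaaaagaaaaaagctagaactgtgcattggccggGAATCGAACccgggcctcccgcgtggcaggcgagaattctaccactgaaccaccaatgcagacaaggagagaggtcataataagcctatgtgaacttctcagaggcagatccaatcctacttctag

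The asynchronous list held 5206 peaks, all 173 bp wide, with scores from 10.1 to 58.3 and a median of 11.8. The mitotic list held 3227 peaks, all 203 bp wide, with scores from 10.2 to 282.5 and a median of 10.9. The score is the authors' own peak height, and its column carries no unit. Peaks had been kept above a cutoff of 1 RPM (reads scaled to library size), and the lowest scores would match it if a score is 10 times the RPM. Within a tolerance of 0.051, 99.7% of asynchronous scores were whole multiples of 0.422 and 99.5% of mitotic scores of 0.728, as read counts divided by a fixed library size would be. If each step is 1 read, the lowest listed peaks rested on 24 asynchronous and 14 mitotic reads, and the read counts given below are on that basis. Scores were therefore ranked only within their own list, with tied peaks sharing the best rank. A gene without a peak is one where no region reached the authors' threshold at this depth, which does not show that RBPJ was absent.

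The 6 members with an asynchronous peak made up 66.7% of the family (exact binomial 95% interval 29.9 to 92.5%), where 29.8% of all protein-coding genes had a peak by the same rule. The 3 members with a mitotic peak made up 33.3% (7.49 to 70.1%), where the share of all genes was 18.2%. A peak of both lists was found at 3 of 9 members and at 11.2% of all genes. Hes and Hey genes are short, and among the 11492 protein-coding genes no longer than Heyl, the longest member at 16320 bp, the shares were 28.3% for the asynchronous and 16.8% for the mitotic list. These intervals cover counting error only, and with 9 genes they are wide: the first begins next to the share of all genes and the second holds it. They are not a test against that share, because the members were chosen with earlier results of these data known. With a window of 10 kb, 4 members had an asynchronous peak (Hes1, Hes2, Hes3 and Hes7), and 2 had peaks of both lists (Hes1 and Hes7). With only the peaks at or above the median score of their list, the numbers were again 4 (Hes1, Hes3, Hes5 and Hey1) and 2 (Hes1 and Hes5). At 10 kb, 21.4% of all protein-coding genes had an asynchronous and 12.4% a mitotic peak. With the peaks at or above the median score, the shares of all genes were 18.5 and 11.7%. Altogether 13 asynchronous and 6 mitotic peaks were assigned, and their positions are drawn in the map of the 9 genes.

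**Figure D1:**
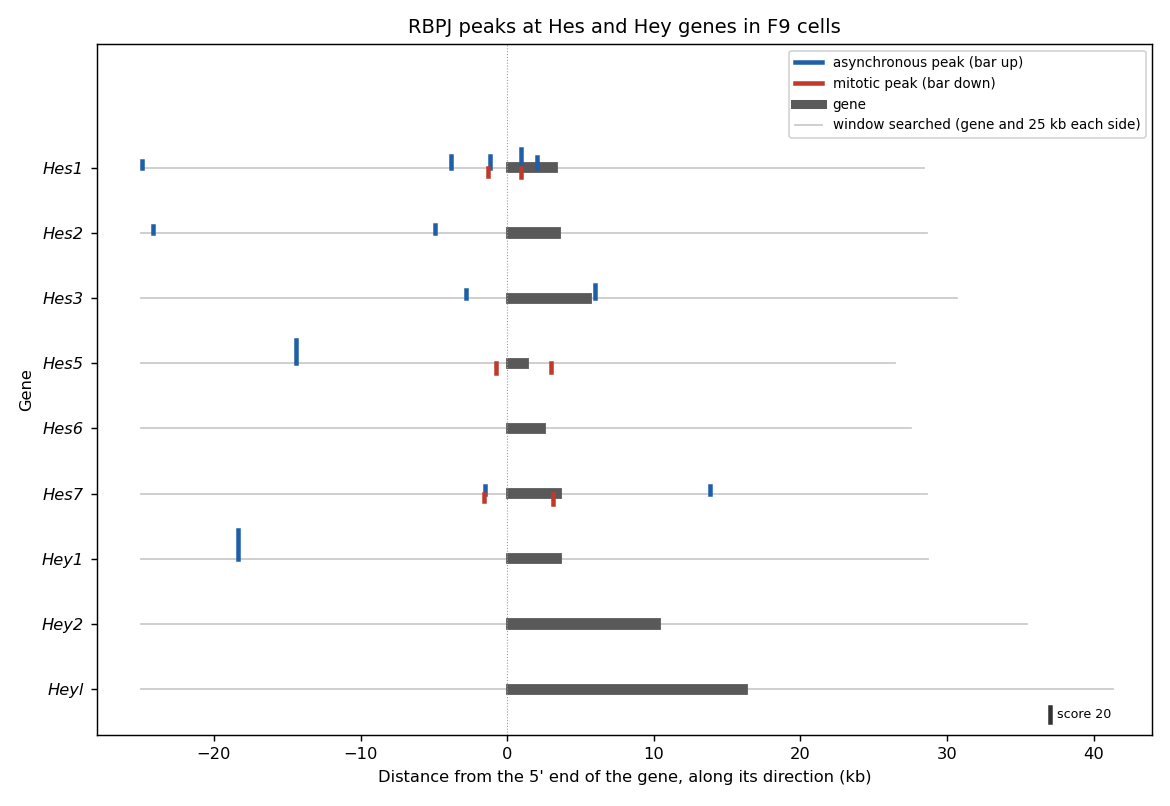
Map of RBPJ peaks at the 9 Hes and Hey genes. The horizontal axis is the distance in kb from the 5′ end of each gene along its direction of transcription, dark boxes are genes, gray lines the windows searched, blue bars pointing up the 13 asynchronous peaks and red bars pointing down the 6 mitotic peaks, with bar length proportional to the score of the peak in its own list. Mitotic peaks occur only at Hes1, Hes5 and Hes7, and Hes6, Hey2 and Heyl are empty.

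Hes1, the general Notch effector of the family (ENSMUSG00000022528.7, chr16:30064470-30067882, plus strand), had 5 asynchronous peaks, a number reached by 0.407% of all protein-coding genes. Its 2 mitotic peaks were matched or exceeded at 4.24% of genes. The annotated gene begins with a non-coding transcript upstream of the start of the coding transcript at 30065426, so that positions differ between the starts. The highest Hes1 peak scored 26.6 (rank 66 of 5206, 63 implied reads with an exact Poisson 95% interval of 48.4 to 80.6). Its center lay 953 bp past the 5′ end of the gene but 3 bp upstream of the coding start. The mitotic peak that overlapped it scored 13.1 (rank 298 of 3227, 18 reads, 10.7 to 28.4), and the centers were 23 bp apart. It was the only overlapping pair at the family in which both peaks held the RBPJ motif. The paper also reports RBPJ at the Hes1 promoter in asynchronous and mitotic cells by PCR of immunoprecipitated DNA. In its knockdown experiment, that signal fell when RBPJ was depleted.

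The paired sites of the Hes1 promoter, at chr16:30065345-30065374 with 16 bases between its sites, had their middle 66.5 bp upstream of the coding start. The first motif was 75.5 bp upstream of the center of the asynchronous peak and 52.5 bp upstream of that of the mitotic peak, so neither peak was centered on the motif. Paired sites within 50 bases of a peak were rare: 3 asynchronous peaks (0.0576%) and 1 mitotic peak (0.03099%) had them in all, and the mitotic one was that of Hes1. In promoters, here the 1 kb before and the 100 bp after the start of a coding transcript, paired sites were found at 8 of 22342 protein-coding genes (0.0358%), and Hes1 was the only member among them.

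A second overlapping pair lay upstream of Hes1. The asynchronous peak at chr16:30063194-30063366 scored 16.5 (rank 562, 39 reads, 27.7 to 53.3) and its center was 1190 bp upstream of the gene. The mitotic peak at chr16:30063069-30063271 scored 10.9 (rank 1099, 15 reads, 8.40 to 24.7) and lay 1300 bp upstream, 110 bp from the other center. Neither held the RBPJ motif or its core TTCCCA. The other asynchronous peaks of Hes1 had no mitotic counterpart. The peak 3824 bp upstream scored 16.5 (rank 562), held no motif and was 2524 bp from the closest mitotic peak. The peak 2003 bp downstream of the 5′ end lay in an exon of a non-coding transcript, 49 bp past the nearest annotated transcript start. It scored 15.2 (rank 825, 36 reads, 25.2 to 49.8) and had TTCCCACG 6.5 bp from its center, with the closest mitotic peak 1073 bp away. The peak 24885 bp upstream was at the lowest score of the list, 10.1 (rank 4458), had no motif and lay 23.6 kb from the closest mitotic peak.

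Hes5, a Notch effector of neural progenitors (ENSMUSG00000048001.7, chr4:154335032-154336480, plus strand), had 1 asynchronous peak and 2 mitotic peaks, and none of them overlapped. The asynchronous peak, 14401 bp upstream, scored 32.9 (rank 27 of 5206, 78 reads, 61.7 to 97.3), with TTCCCACG 2.5 bp from its center. The closest mitotic peak was 13622 bp away, at chr4:154334152-154334354, where it scored 13.1 (rank 298) at 779 bp upstream of Hes5 without motif or core. The second mitotic peak, chr4:154337926-154338128, scored 11.6 (rank 662, 16 reads) and lay 2995 bp downstream of the Hes5 start, past the gene. It held the core alone and was 205 bp upstream of the start of Pank4, the gene with the nearest start. The peaks of the populations at Hes5 were thus at different places, and the strongly scoring site with a motif was listed in asynchronous cells only.

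Hes7, a component of the segmentation clock in the presomitic mesoderm (ENSMUSG00000023781.2, chr11:68933906-68937557, plus strand), had 2 peaks in each list. In the overlapping pair, the asynchronous center was 1527 bp and the mitotic center 1574 bp upstream of the gene, 47 bp apart. The asynchronous peak scored 11.0 (rank 3278, 26 reads) and the mitotic peak 10.2 (rank 1852, 14 reads, 7.65 to 23.5), the lowest score of its list. The RBPJ motif at chr11:68932435-68932442 was 59.5 bp from the asynchronous center and began just past the end of the mitotic peak at 68932433. Both peaks covered the B box letters at chr11:68932308-68932316. The second mitotic peak, chr11:68936962-68937164, scored 13.8 (rank 196, 19 reads, 11.4 to 29.7) and lay in an untranslated region of Hes7, 3157 bp from its start. It had no RBPJ core but held the B box letters GTTCGAATC at chr11:68936996-68937004. The closest asynchronous peak was 4.68 kb away. The second asynchronous peak of Hes7, 13835 bp downstream, scored 10.6 (rank 3824), had no motif and lay in a coding exon of Aloxe3, with the closest mitotic peak 10678 bp away.

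The B box letters occurred in 22 asynchronous peaks (0.423%) and 11 mitotic peaks (0.341%), and 2 of those 11 were the Hes7 peaks. Among the 403 asynchronous peaks that overlapped a mitotic peak, 2 held them (0.496%), and the Hes7 peak was 1 of them. RefSeq (GRCm38.p6, used for neighbors only) lists 7 tRNA genes within 25 kb of Hes7, with n-TGgcc5 directly upstream of Hes7 and n-TRtct4 inside it. It lists 1 near Hey2 (n-TEctc9), none near the other 7 members, and at least 1 near 260 of 21631 protein-coding genes (1.2%). The tRNA genes were not placed in mm9, so whether the Hes7 peaks cover them was not determined. The part of the tRNA genes in these peaks was not tested.

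**Figure D2:**
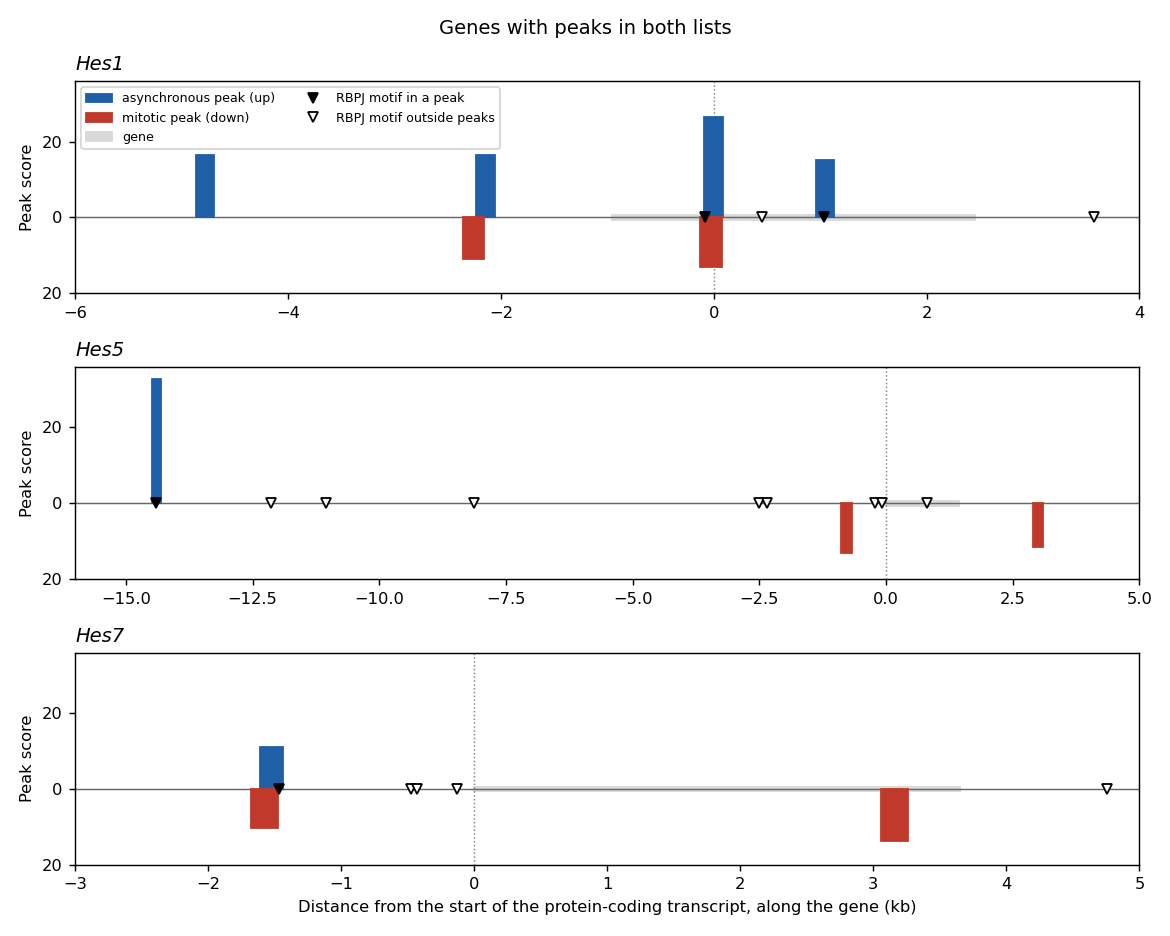
The 3 genes with peaks in both lists. The horizontal axis is the distance in kb from the start of the coding transcript along the gene, on a scale of its own in each panel. Blue boxes above the line are asynchronous and red boxes below the line mitotic peaks, at their true width, with the score of the peak within its own list as height. Filled triangles are RBPJ motifs inside a peak and open triangles motifs outside. The Hes1 peak 24885 bp upstream and the Hes7 peak 13835 bp downstream of the 5′ end lie beyond the panels. At the Hes1 start both lists have a peak over a motif. At Hes5, 1 of the 12 motifs in the window is in the asynchronous peak and none is in a mitotic peak. At Hes7 the motifs nearest the start are outside the peaks.

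Hey1, a Notch effector of the heart and vessels (ENSMUSG00000040289.3, chr3:8663362-8667039, minus strand), had a single peak, the highest of the family. It lay 18341 bp upstream and scored 40.9 (rank 8 of 5206, 97 reads, 78.7 to 118). The closest mitotic peak was 892.8 kb away. Hey1 thus had an asynchronous peak near the top of the list and no mitotic peak in its window.

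Hes3 (ENSMUSG00000028946.5, chr4:151660081-151665771, minus strand) had 2 asynchronous peaks. That at chr4:151659705-151659877, 290 bp past the end of the gene, 5980 bp from its 5′ end and 2378 bp from the nearest transcript start of Hes3, scored 17.7 (rank 403, 42 reads, 30.3 to 56.8). It held TTCCCACA 42.5 bp from its center and, 23.5 bp from the center on the other side, a match to the consensus of CTCF, an insulator protein. The other, 2776 bp upstream, scored 11.4 (rank 2807, 27 reads) and had the core and a CTCF match 42.5 bp from its center, but no full RBPJ motif. The closest mitotic peaks were 186.3 and 195.0 kb away.

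Hes2 (ENSMUSG00000028940.2, chr4:151532976-151536578, plus strand) had 2 asynchronous peaks of low rank. The peak 24144 bp upstream scored 10.1 (rank 4458), the lowest score of the list, and lay in an intron of Espn, with a CTCF match 5.5 bp and a TTCCCA core 14.5 bp from its center. A full TTCCCACA lay just past its end, 93.5 bp from its center. The peak 4910 bp upstream scored 10.6 (rank 3824, 25 reads) and had neither a CTCF match nor a core. For both, the nearest start was that of Espn, for the second 1586 bp upstream of it. Mitotic peaks were 35.3 and 54.6 kb away. The assignment of these peaks to Hes2 rests on the 25 kb rule alone.

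No peak of either list was assigned to Hes6, Hey2 or Heyl. The closest peaks to Hes6 (ENSMUSG00000067071.2, chr1:93308060-93310615) were 232.2 kb away in the asynchronous and 219.2 kb away in the mitotic list. Those of Hey2 (ENSMUSG00000019789.8, chr10:30552165-30562607), a cardiovascular Notch effector, were 102.7 and 1688.8 kb away. Those of Heyl (ENSMUSG00000032744.4, chr4:122910799-122927118) were 93.2 and 32.5 kb away, and the latter, with a score of 14.6 (rank 132), was 480 bp upstream of Nt5c1a. The paper nevertheless shows browser tracks of RBPJ occupancy over a motif at Heyl, as an example of a Notch target gene. Neither list holds a peak at Heyl, so the lists do not show Heyl to be unbound. The same figure of the paper shows tracks at Hes7. The window edge passed close to a few peaks: just inside were those of Hes1 and Hes2 at 24885 and 24144 bp upstream. Just outside was an overlapping pair 25575 bp (asynchronous, score 14.8, rank 939) and 25445 bp (mitotic, score 11.6, rank 662) upstream of Hes7, at the start of Per1.

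The scores of the 13 asynchronous peaks had a median of 15.2, against 11.8 for the list. Of these, 7 were at or above the list median, 3 were in the top 2% and 2 were at the lowest score. The 6 mitotic peaks had a median of 12.35, against 10.9 for their list. Of these, 5 were at or above the list median, 1 was at the lowest score and none was in the top 2%, as the plot of scores by rank shows. The mitotic median was shared by 753 peaks, among them the Hes1 upstream peak. More mitotic peaks of the whole list were therefore at or above the median than below it. The asynchronous peaks with the highest scores (Hey1, Hes5 and the Hes1 promoter) thus stood near the top of their list, while no mitotic peak of the family ranked above 196.

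**Figure D3:**
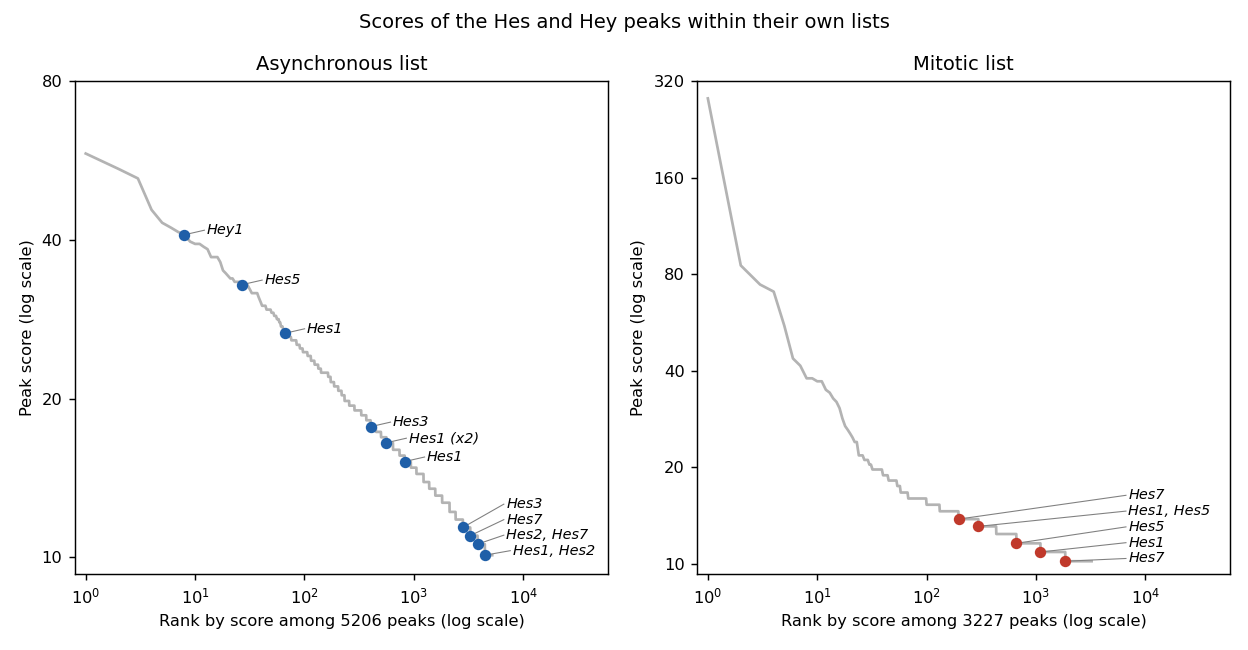
Scores of the Hes and Hey peaks within their own lists. Both axes are logarithmic, the horizontal axis is the rank by score and the vertical axis the score as deposited, the gray line is every peak of the list and the points are the 13 asynchronous (left) and 6 mitotic (right) peaks of the family, labelled by gene, with x2 for a pair of peaks at one point. Hey1 at rank 8, Hes5 at rank 27 and Hes1 at rank 66 lead the left panel, and the highest point on the right is Hes7 at rank 196. The panels have different scales and are not to be compared in height.

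Of the 13 asynchronous peaks, 3 overlapped a mitotic peak (23.1%, exact 95% interval 5.04 to 53.8%), against 7.74% of the list. The 3 were the Hes1 promoter, the Hes1 upstream and the Hes7 upstream peaks. The paper counted the majority of its asynchronous sites as common to mitotic cells, using a fold cutoff on enrichment. Overlap of listed peaks is a different measure, so these shares are not comparable with that one. The RBPJ motif was in 6 of 13 asynchronous peaks (46.2%, 19.2 to 74.9%), against 9.09% of the list, and in 1 of 6 mitotic peaks (16.7%, 0.421 to 64.1%), against 3.53%. These intervals treat peaks as independent, although 5 of the 13 asynchronous peaks were at Hes1, and enrichment was not tested. The core TTCCCA was in 8 of 13, against 35.9%, and in 2 of 6, against 25.1%. The CTCF consensus was in 3 of 13, against 18.04%, and in 0 of 6, against 8.305%. Within the family, the 6 asynchronous peaks with a motif scored 11.0 to 40.9 with a median of 22.15, and the 7 without scored 10.1 to 16.5 with a median of 10.6, so the ranges overlapped. Over the whole list the medians were 13.1 and 11.8. GC content of the family's peaks had a median of 57.2% in the asynchronous list (56.1% over the list) and 52.0% in the mitotic list (53.7%).

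Most motifs near the 9 genes were outside the peaks. The windows held 72 RBPJ motifs, of which 6 were in an asynchronous peak (8.33%) and 1 in a mitotic peak (1.39%). Of the 113024 motifs within 25 kb of any protein-coding gene, 0.3796% were in an asynchronous and 0.0964% in a mitotic peak. Motifs were 1.44 per 10 kb in the windows of the family and 0.775 per 10 kb for all genes. Heyl had the most motifs (13) with none in a peak, and Hes5 had 12 with 1 in a peak, which the plot of motifs per gene shows. Near the coding starts, 15 motifs lay within 1 kb, and only that of the Hes1 promoter was in a peak. Motifs outside the peaks included those of Hes5 at 80.5 and 222.5 bp upstream, Hey1 at 388.5 bp upstream and 20.5 bp downstream, Hey2 at 185.5 bp upstream and 16.5 bp downstream, and Hes7 at 127.5, 429.5 and 472.5 bp upstream. A motif in the promoter was present at 5 members (Hes1, Hes5, Hes7, Hey1 and Hey2) and at 12.2% of all protein-coding genes. A motif is a match of letters, and occupancy below the authors' threshold was not measured here.

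**Figure D4:**
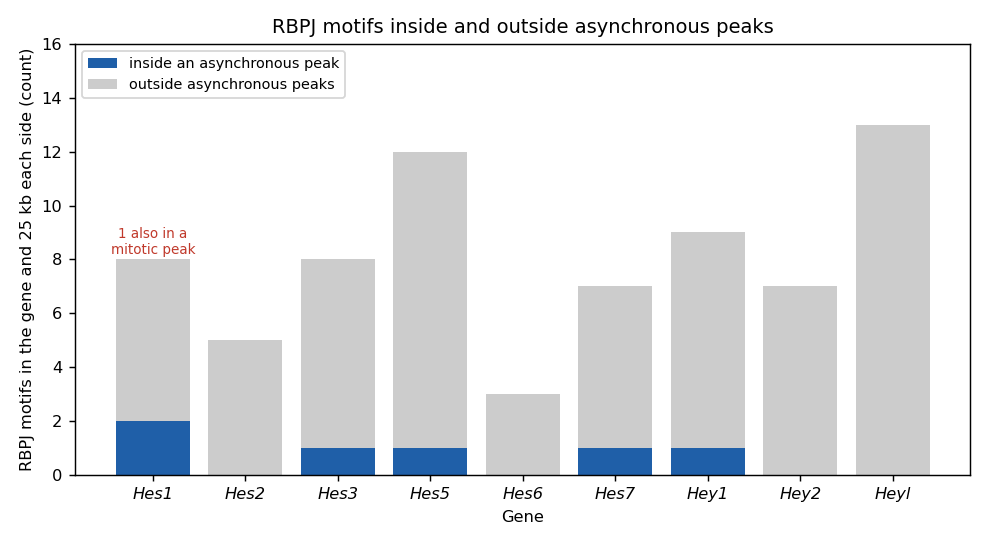
RBPJ motifs in the gene and 25 kb on each side of it, by gene. Bars give the number of motifs, with the blue part inside an asynchronous peak and the gray part outside, and the red note marks the motif that is also in a mitotic peak. Hes1 has 2 of 8 motifs in asynchronous peaks, Hes3, Hes5, Hes7 and Hey1 have 1 each, and Hes2, Hes6, Hey2 and Heyl have none.

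The genes that act with the family were read by the same rule. The lists were relatives, Groucho-family genes, proneural genes, Id genes, Notch receptors and ligands, and RBPJ with its Mastermind co-activators and Nrarp. Of their 38 genes, 13 had an asynchronous peak (34.2%) and 10 a mitotic peak (26.3%), and 5 had both (13.2%). The share of all genes was 29.8, 18.2 and 11.2%, in that order. Of the 9 Notch receptors and ligands, 4 had an asynchronous and 3 a mitotic peak. Notch1 and Notch4, which encode receptors, had peaks in both lists, each with an overlapping pair. The Notch1 peaks scored 13.5 (rank 1381) and 11.6 (rank 662) and lay 12505 and 12504 bp from its start. Of the 11 proneural genes, 3 had an asynchronous peak (Neurog2, Neurog3 and Neurod2) and 1 a mitotic peak (Neurod4). Of the 6 Groucho-family genes, 2 had an asynchronous and 3 a mitotic peak. Tle2 and Tle6 were in both, although these neighbors with Aes on chromosome 10 share peaks. Of the 4 Id genes, whose products dimerize with bHLH proteins and block their binding to DNA, 2 had an asynchronous and 1 a mitotic peak, with Id3 in both. Of the 5 genes in the last list, Maml3 had an asynchronous and Maml1 a mitotic peak, and Rbpj, Maml2 and Nrarp, a feedback inhibitor of Notch signaling, had none. Of the 3 relatives, Bhlhe40 had an asynchronous and Bhlhe41 a mitotic peak.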

How the data were processed

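Anti-RBPJ ChIP-seq was performed in asynchronous and nocodazole-arrested mitotic F9 cells. The authors aligned reads uniquely to mm9 with Bowtie 0.12.7 and called peaks with HOMER against input, kept those above 1 RPM, and the deposited lists give a score per peak. Only the first immunoprecipitation of each population had a processed list, with no counts. Peaks were handled in Python 3.11.15 (pandas 2.3.3, numpy 2.4.6), compared with the GENCODE vM1 annotation of NCBIM37 (mm9), and sequences were taken with pysam 0.24.0. Intervals came from scipy 1.17.1 and plots from matplotlib 3.10.9. Overlap meant at least 1 bp. RBPJ motifs, paired sites, the CTCF consensus (12 positions, at most 1 mismatch) and the B box were searched on both strands. All 9 members were named with every assigned peak, other listed genes mostly by count. Sequences were printed for selected peaks only, and that of 1 peak with a motif is not reported here. The scripts were tested on simulated data. No test was run, since each population had 1 list. The members and gene lists were chosen with earlier results of these data known, and the CTCF consensus, the B box and the comparison with short genes were chosen after values had been seen. Other windows, score minima, motif definitions, overlap rules and start positions were tried.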

Additional observations from a re-analysis of the deposited data

How the results depend on the processing

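Of 46 alternatives for counts, 40 stayed within 1.5 times the reported value and 6 moved. The falls of members from 6 to 4 and from 3 to 2 given below are at that limit and count among the 40. With a window of 10 kb, 8 asynchronous peaks were assigned to the family, and the members fell from 6 to 4 with an asynchronous peak and from 3 to 2 with both. With peaks at or above the median score of their list, 7 were, the members were again 4 and 2, and the shares of protein-coding genes were 18.5% for the asynchronous and 11.7% for the mitotic list. At 10 kb those shares were 21.4 and 12.4%. With the core TTCCCA, or with peaks widened by 50 bases, 2 mitotic peaks held a motif. The peak added by widening was the one upstream of Hes7. In the asynchronous list, widening raised the count from 6 to 7 and added the Hes2 peak 24144 bp upstream. Of 19 positions, 14 were the same from the nearest transcript start, 3 moved and 2 reversed: the asynchronous Hes1 promoter peak went from 953 to -3 bp and the mitotic one from 930 to -26 bp. The moved positions were those of the Hes1 downstream peak (2003 to 49 bp), the peak at the Hes3 end (5980 to 2378 bp) and the second mitotic Hes5 peak (2995 to 2947 bp). A window of 50 kb gave 6 members with an asynchronous, 4 with a mitotic and 3 with both peaks, and peaks nearest to the start of a member alone gave 5, 3 and 3. At 50 kb, 38.8% of protein-coding genes had an asynchronous and 25.5% a mitotic peak. No paired analysis was possible because each population had 1 peak list. The depth limits low peaks, whose lowest scores rested on 24 and 14 implied reads, and without replicates the intervals leave out variation between cultures.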

Other observations

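Beyond the 25 kb windows, 1 of the 3 asynchronous peaks with paired sites lay on the side of Hes2, at chr4:151480984-151481156 in a coding exon of Plekhg5, 51906 bp upstream of Hes2. It scored 15.2 (rank 825), held an RBPJ motif, and the closest mitotic peak was 7557 bp away. An asynchronous peak with an RBPJ motif and a score of 14.4 (rank 1056) lay 56732 bp downstream of the Hes1 5′ end, and Hes1 was the gene with the nearest start. On the side of Heyl, peaks of both lists lay at the start of Bmp8a, 461 bp apart and without overlap, with scores of 11.8 (asynchronous) and 11.6 (mitotic). The pair near Hes7 at the start of Per1, a circadian clock gene, was 388 bp (asynchronous) and 258 bp (mitotic) upstream of Per1, with 130 bp between the centers, and neither peak held an RBPJ core or a CTCF match.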
